A study of Mus musculus with 18 samples.

Results

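The 9 genes described here are B cell and immunoglobulin genes, chosen by symbol as *Cd79a*, *Cd79b*, *Ms4a1*, *Pax5*, *Ighm*, *Ighd*, *Igkc*, *Iglc2* and *Jchain*. All 9 had a row among the 37236 genes of the table. RNA was sequenced from tumor-infiltrating lymphocytes (TILs) of C57BL/6 mice in 18 samples, with mice either wild type or *Nr2f6*-/-, the latter lacking the nuclear receptor gene *Nr2f6* in all their cells. All mice carried s.c. tumors of B16-OVA, a mouse melanoma line that expresses ovalbumin, from 500000 injected cells. From d3 they received 0.5 mg of an anti-PD-L1 antibody (αPD-L1, clone 10F.9G2) or of the control antibody IgG2b (LTF-2) i.p., and tumors were harvested at d14. The groups were wild type with IgG2b (n = 3), *Nr2f6*-/- with IgG2b (n = 3), wild type with αPD-L1 (n = 6) and *Nr2f6*-/- with αPD-L1 (n = 6). The labels give no age of the mice and do not say whether a sample is 1 animal or a pool, so p-values measure only the spread between these samples. The cells were pre-sorted with CD4 and CD8 beads, pooled and sorted for CD3, a gate that should hold T cells and not B cells.

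B cells carry an antigen receptor made of immunoglobulin heavy and light chains, which signals through the paired proteins CD79A and CD79B. Naive B cells make IgM and IgD from 1 primary transcript that runs through the neighbouring constant genes *Ighm* and *Ighd*, and each cell uses either a kappa or a lambda light chain. *Pax5* encodes the transcription factor that keeps B cell identity, *Ms4a1* encodes CD20, and *Jchain* encodes the chain that joins secreted IgM or IgA units and is made by plasma cells, which have shut off *Pax5* and *Ms4a1*.

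The values are normalized counts, that is, reads per gene divided by 1 size factor per library, measured with a library kit for the 3′ end of mRNA. Between 12473391 and 18609482 reads per library were counted on genes, and a floor of 3 reads stood at 2.46 to 3.64 normalized counts, which covers counting error only. *Nr2f6* had 0 reads in all 9 *Nr2f6*-/- libraries and a read in all 9 wild-type libraries. The library numbers form 2 sets, and because the second set has no IgG2b library (it is made of replicates 4 to 6 with αPD-L1), a treatment effect can be checked only in the first. The 9 T cell genes looked at were read in all 18 libraries, with a summed level of 95726 to 171244 normalized counts.

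In these T cell libraries 1 of the 9 genes, *Cd79a*, was listed at 0 throughout, and only *Ighm* and *Igkc* were read in all 18 libraries. *Ighm* was the one member with a narrow range, 900 to 4153 normalized counts. Over the 18 libraries *Ighd*, *Jchain* and *Cd79b* went from 0 to more than 100, and of these only *Ighd* did so within a group. None of the 5 members that could be tested passed an adjusted p of 0.05 in limma in any comparison. The widest differences were those of *Cd79b*, which lay at 0 to 0.951 in the *Nr2f6*-/- IgG2b libraries and at 5.58 to 150 in the *Nr2f6*-/- αPD-L1 libraries.

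Positions of the members are given on the assembly GRCm38, which mm10 stands for. The surface and signaling genes are *Cd79a* at chr7:24897381-24902197 on the plus strand, *Cd79b* at chr11:106311341-106314762 on the minus strand and *Ms4a1* at chr19:11249675-11266241 on the minus strand. *Pax5* lies at chr4:44524757-44710487 on the minus strand, and *Jchain* at chr5:88519809-88527891 on the minus strand. The constant genes are *Ighm* at chr12:113418558-113422730 and *Ighd* at chr12:113406604-113416324, both on the minus strand and 2233 bases apart, *Igkc* at chr6:70726435-70726966 on the plus strand and *Iglc2* at chr16:19198396-19200351 on the minus strand. In GENCODE M21 *Igkc* overlaps the gene *Gm30211* on the same strand, *Ms4a1* overlaps the antisense gene *4930526L06Rik*, and *Pax5* overlaps *Gm12462*, *4930517J16Rik* and *5730488B01Rik* on the other strand. The overlapping genes of *Ms4a1* and *Pax5* had at most 2.09 normalized counts in any library. On the same strand *Pax5* also overlaps *Mir5120* and *Iglc2* overlaps *Iglj2*, both at 0 in all libraries. The strand setting of the counting is not given in the sources used here. Reads of *Ms4a1* and *Pax5* could thus not be separated from those of a partner on the other strand by the annotation alone. For *Igkc* strand could not separate them in any case, and *Gm30211* was not among the genes with values.

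Of the members, *Iglc2* has a near-identical copy, *Iglc3*. Both constant regions are shown because reads from them can be hard to assign and the lambda values below rest on this. The lines give the first 300 bases of each coding constant region, 5′ to 3′ on the minus strand of GRCm38, at chr16:19198553-19198852 and chr16:19065382-19065681, with the bases that differ in capitals.
Iglc2: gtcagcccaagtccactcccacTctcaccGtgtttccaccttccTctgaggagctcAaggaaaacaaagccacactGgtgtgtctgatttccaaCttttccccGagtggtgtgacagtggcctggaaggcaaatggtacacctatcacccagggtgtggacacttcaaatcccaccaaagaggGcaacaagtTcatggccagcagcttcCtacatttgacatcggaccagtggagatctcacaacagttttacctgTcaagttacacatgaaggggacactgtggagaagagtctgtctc
Iglc3: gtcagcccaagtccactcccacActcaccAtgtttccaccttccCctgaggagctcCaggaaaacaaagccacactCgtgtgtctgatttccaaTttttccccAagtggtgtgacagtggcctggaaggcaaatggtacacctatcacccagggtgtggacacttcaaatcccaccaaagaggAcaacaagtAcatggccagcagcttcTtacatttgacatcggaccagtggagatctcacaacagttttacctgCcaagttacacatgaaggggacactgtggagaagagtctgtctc
Over these 300 bases 11 differ, which is an identity of 96.3%, and the longest run without a difference is 79 bases. After the stop codon *Iglc2* and *Iglc3* were 89.3% identical over 140 aligned positions, and their longest identical run was 39 bases. Where in these genes the reads lie is not part of the values. *Iglc2* and *Iglc1*, another lambda gene, were 73.5% identical in the coding constant region. Reads of multiple positions were kept at 1 primary position, so the split between *Iglc2* and *Iglc3* is uncertain, and their sum with *Iglc1* is used where lambda is set beside kappa.

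**Figure D1:**
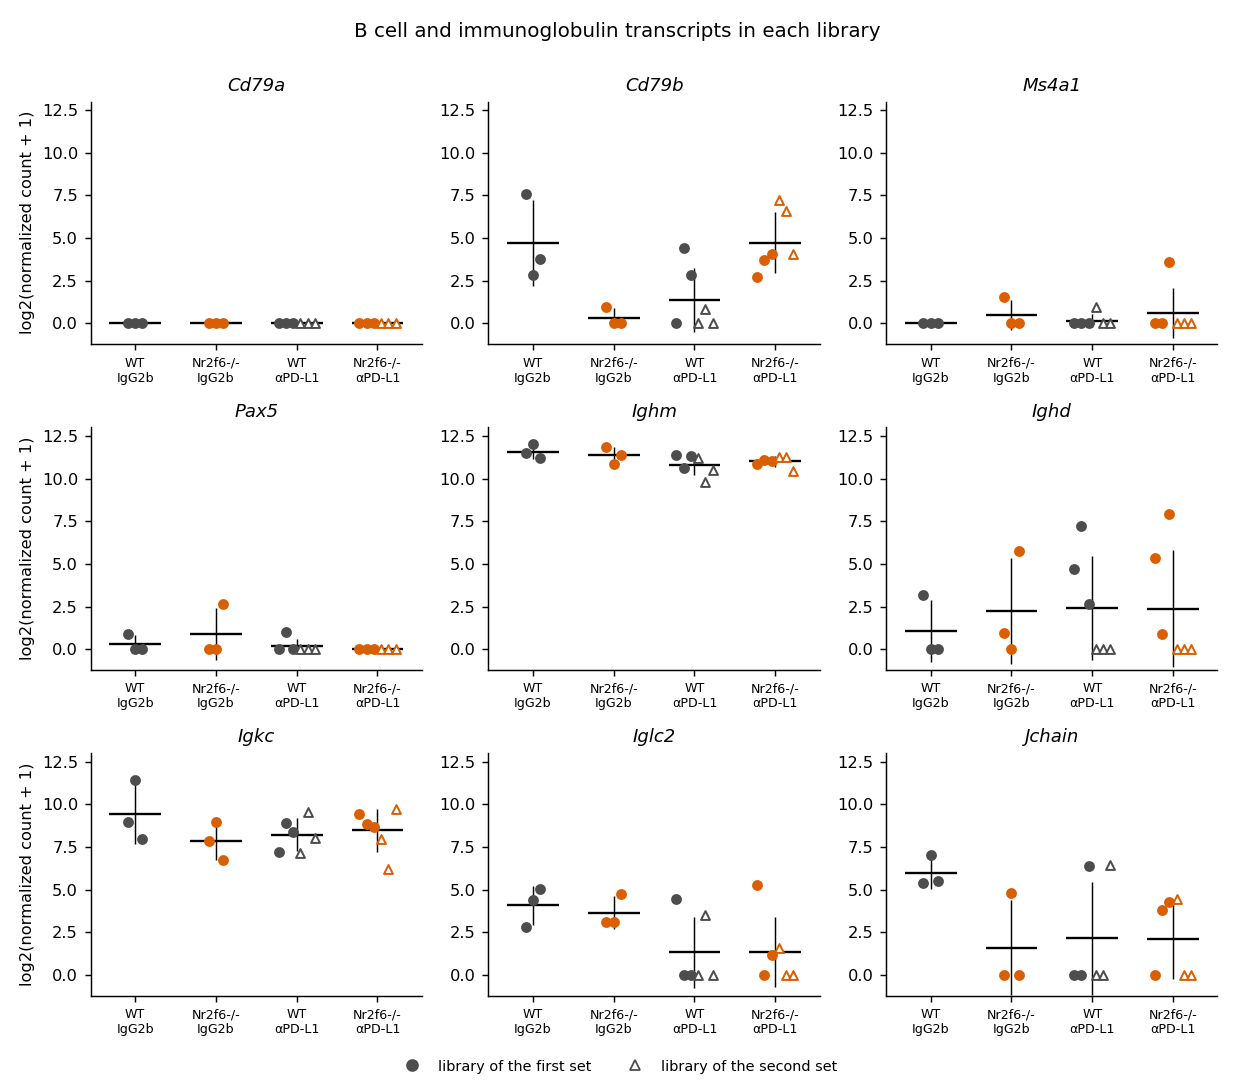
Each panel plots 1 of the 9 genes, with log2(normalized count + 1) on the y axis and the 4 groups on the x axis. Points are libraries, circles from the first and open triangles from the second library set, and lines give the mean and SD of the log2 values. *Ighm* lies high in all 18 libraries, *Cd79a* lies at 0 in all, and all 6 second-set libraries lie at 0 for *Ighd*.

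Among the surface and signaling genes, *Cd79a* had 0 reads in each of the 18 libraries, which allows up to 3 reads per library. *Ms4a1* had 12 reads in all, in 3 libraries. They gave 1.90 normalized counts in 1 *Nr2f6*-/- IgG2b library, 0.928 in 1 wild-type αPD-L1 library and 10.9 in 1 *Nr2f6*-/- αPD-L1 library, and 15 libraries were at 0. *Pax5* had 7 reads in all, with 0.879 normalized counts in 1 wild-type IgG2b, 5.20 in 1 *Nr2f6*-/- IgG2b and 1.02 in 1 wild-type αPD-L1 library. So the defining B cell genes *Ms4a1* and *Pax5* were each over the floor in 1 library only, and no library was over it for both. *Ebf1*, which acts beside *Pax5*, had at most 3.81 normalized counts.

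*Cd79b* was read in 13 of the 18 libraries although *Cd79a*, whose protein it pairs with, was read in none. In wild type it had 192, 6.25 and 12.4 normalized counts with IgG2b (70.4 ± 106, SD, n = 3). With αPD-L1 the 6 wild-type libraries went from 0 to 20.4 with a median of 0.411 (4.58 ± 8.12, SD, n = 6). So 1 of the 3 wild-type IgG2b libraries stood far above the others, and 3 of the 6 wild-type αPD-L1 libraries were at 0. In *Nr2f6*-/- mice it had 0.951, 0 and 0 normalized counts with IgG2b (0.317 ± 0.549, SD, n = 3). With αPD-L1 the 6 *Nr2f6*-/- libraries went from 5.58 to 150 with a median of 15.9 (49.3 ± 59.7, SD, n = 6). All 6 were above all 3 *Nr2f6*-/- IgG2b libraries.

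In limma, the αPD-L1 effect on *Cd79b* in *Nr2f6*-/- mice was 4.42 on the log2(normalized count + 1) scale (SE 1.53, 95% confidence interval 1.29 to 7.54, adjusted p = 0.278). The exact permutation test (two-sided, unadjusted) gave p = 0.0119, the smallest these group sizes allow. The *Nr2f6*-/- αPD-L1 libraries held 306 *Cd79b* reads and the *Nr2f6*-/- IgG2b libraries 1 read. The ratio of normalized counts was 153, with a 95% interval of 27.2 to 6049 that covers counting error only. This ratio and the tests pool both library sets, and the second set has no IgG2b library, so they do not separate treatment from library set. Mean *Cd79b* in the *Nr2f6*-/- αPD-L1 libraries was 11.2 normalized counts in the first set and 87.4 in the second. In wild type the αPD-L1 effect had the other sign, -3.38 (SE 1.53, limma adjusted p = 0.638). The difference between these effects was 7.79 (SE 2.16, 95% confidence interval 3.37 to 12.2, limma adjusted p = 0.755). DESeq2 on the recovered reads called the effect in *Nr2f6*-/- mice (log2 fold change 7.14, adjusted p = 0.0383) and the difference (11.1, adjusted p = 0.0109), and edgeR called neither (adjusted p = 0.390 and 0.888).

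Between genotypes *Cd79b* was 3.38 higher in *Nr2f6*-/- than in wild-type mice under αPD-L1 (SE 1.25, limma adjusted p = 0.355), where the groups overlapped. Within the first library set this difference was 1.07, from means of 11.2 and 8.89 normalized counts, and within the second set 5.69, from means of 87.4 and 0.274. Under IgG2b it was -4.41 (SE 1.77, limma adjusted p = 0.872), and the groups did not overlap. Within the first set, the only one that holds both treatments, the αPD-L1 effect was 3.18 in *Nr2f6*-/- and -2.31 in wild type. The size of the genotype difference under αPD-L1 thus differed between the library sets, while its sign did not.

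*Ighm*, the constant gene of the IgM heavy chain, was the member with the most reads, 43224 in all. It had 2839, 4153 and 2338 normalized counts in wild type with IgG2b (3110 ± 937, SD, n = 3) and 3691, 1876 and 2614 in *Nr2f6*-/- with IgG2b (2727 ± 913, SD, n = 3). With αPD-L1 the wild-type libraries went from 900 to 2688 with a median of 1949 (1921 ± 719, SD, n = 6), and the *Nr2f6*-/- libraries from 1394 to 2491 with a median of 2148 (2089 ± 416, SD, n = 6). All groups overlapped. The αPD-L1 effect was -0.75 in wild type (SE 0.30, limma adjusted p = 0.553) and -0.36 in *Nr2f6*-/- (SE 0.30, adjusted p = 0.762). Within the first library set these were -0.46 and -0.36. The *Nr2f6*-/- minus wild-type difference was 0.19 under αPD-L1 (95% confidence interval -0.30 to 0.69, adjusted p = 0.842) and -0.20 under IgG2b (-0.90 to 0.50, adjusted p = 1).

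The spread of *Ighm* within groups was an SD of 0.47 on the log2 scale, at the 25.2 percentile of the 11992 genes tested, whose median SD was 0.84. The other members spread more, with 1.33 for *Igkc* (63.4 percentile), 1.82 for *Cd79b* (72.8), 2.50 for *Jchain* (89.4) and 2.91 for *Ighd* (97.0).

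*Ighd*, whose product is the IgD heavy chain, was read in 9 libraries with 481 reads in all, and each of these 9 was of the first library set. With IgG2b it had 7.91, 0 and 0 normalized counts in wild type and 0.951, 0 and 54.1 in *Nr2f6*-/-. In the first set with αPD-L1 it had 25.1, 149 and 5.23 in wild type and 39.99, 0.868 and 243 in *Nr2f6*-/-. All 6 second-set libraries were at 0, although each of them was read for *Ighm* (12000 reads in all). *Ighd* reads per 100 *Ighm* reads went from 0 to 11.6. No difference of *Ighd* passed the threshold in limma, and the estimates, from -1.26 to 1.38, had standard errors of 1.58 to 2.73. The αPD-L1 effects were 1.38 in wild type and 0.12 in *Nr2f6*-/- over both sets. Within the first set they were 3.81 and 2.48 (limma adjusted p = 0.616 and 0.770).

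**Figure D2:**
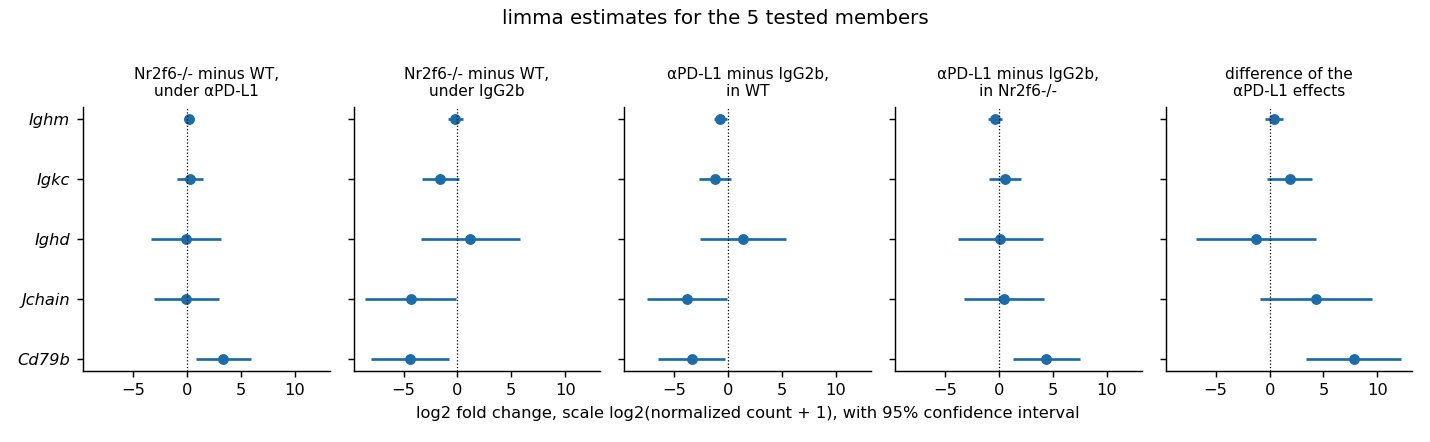
For each of the 5 tested members, points give the limma estimate on the log2(normalized count + 1) scale and lines its 95% confidence interval, with 1 panel for each of the 4 comparisons and 1 for the difference of the αPD-L1 effects. The *Cd79b* estimates lie between -4.41 and 7.79 with intervals, not adjusted for the number of genes, that leave out 0 in all 5 panels, and the *Ighm* estimates lie between -0.75 and 0.40.

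*Igkc*, the constant gene of the kappa light chain, was read in all libraries. In wild type with IgG2b it had 495, 2792 and 251 normalized counts (1179 ± 1402, SD, n = 3), and in *Nr2f6*-/- with IgG2b 232, 508 and 106 (282 ± 205, SD, n = 3). The αPD-L1 libraries went from 138 to 760 with a median of 299 in wild type (354 ± 237, SD, n = 6) and from 72.9 to 862 with a median of 431 in *Nr2f6*-/- (455 ± 287, SD, n = 6). Again 1 wild-type IgG2b library, replicate 2, stood above the rest, and all groups overlapped. The largest difference between 2 groups was that between genotypes under IgG2b, -1.59 (SE 0.83, limma adjusted p = 0.937), and without that library it was -0.60. The αPD-L1 effect was -1.25 in wild type (SE 0.72, adjusted p = 0.774) and 0.61 in *Nr2f6*-/- (SE 0.72, adjusted p = 0.850). Without wild-type IgG2b replicate 2 the former was -0.26, and without *Nr2f6*-/- IgG2b replicate 3 the latter was 0.045.

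*Iglc2*, 1 of the lambda constant genes, had a mean of 9.58 normalized counts over all libraries, just under the filter of 10 for the main test. With IgG2b it was read in all 6 libraries, with 6.15, 19.8 and 32.3 in wild type and 7.61, 7.54 and 26.0 in *Nr2f6*-/-. With αPD-L1 it was read in 2 of 6 wild-type libraries, at 20.9 and 10.7, and in 3 of 6 *Nr2f6*-/- libraries, at 38.1, 1.21 and 1.998. The groups overlapped. The exact permutation test (two-sided, unadjusted) gave p = 0.119 for the treatment in wild type and p = 0.155 in *Nr2f6*-/-, where the smallest possible p is 0.0119. For *Ms4a1* and *Pax5*, also under the filter, no exact permutation p was under 0.333.

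Kappa reads made up 31.8% to 100% of the light chain constant reads. In *Nr2f6*-/- mice the share was 48.1%, 90.9% and 31.8% with IgG2b, and 92.0% to 100% with a median of 94.8% with αPD-L1, so these groups did not overlap. In wild type it was 65.9%, 98.6% and 44.4% with IgG2b and 73.2% to 98.4% with a median of 95.1% with αPD-L1, and the groups overlapped. The exact Clopper-Pearson 95% intervals were 26.7% to 37.2% for the lowest share, from 102 kappa and 219 lambda reads, and 99.6% to 100% for the highest, from 860 kappa and 0 lambda reads. In *Nr2f6*-/- the 2 nearest libraries of these groups had overlapping intervals. They were 88.3% to 93.1% for the 90.9% with IgG2b and 84.3% to 96.7% for the 92.0% with αPD-L1. The shares were not tested.

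**Figure D3:**
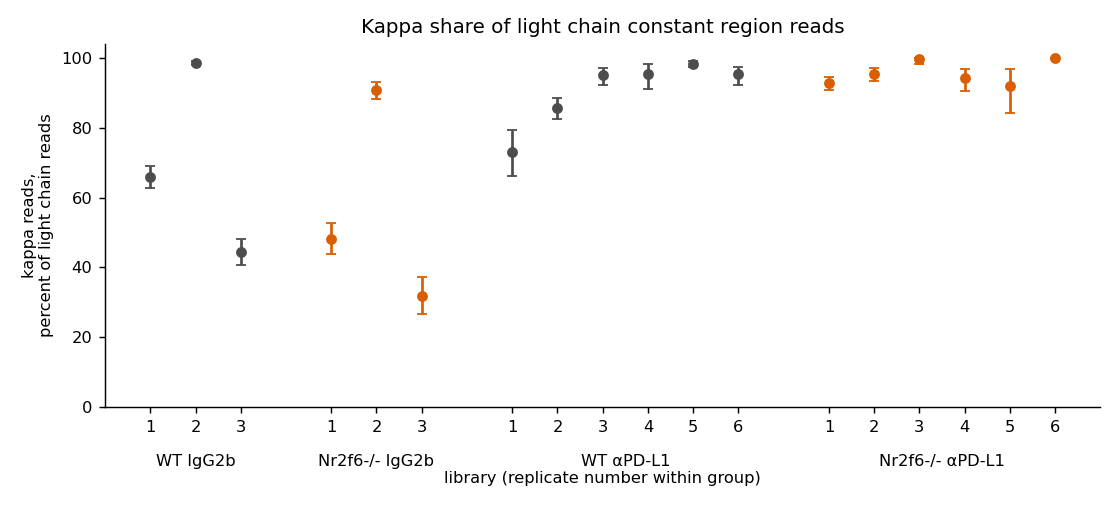
The y axis is the percent of light chain constant reads that were *Igkc* and the x axis gives each library by group and replicate number. Bars are exact 95% binomial intervals, which cover counting error only. The 6 *Nr2f6*-/- αPD-L1 libraries lie at 92.0% to 100%, and 4 of the 6 IgG2b libraries lie between 31.8% and 65.9%.

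*Jchain* was read in 9 libraries with 486 reads in all. In wild type with IgG2b it had 40.4, 130 and 43.9 normalized counts (71.5 ± 50.9, SD, n = 3), and in *Nr2f6*-/- with IgG2b 0, 27.3 and 0 (9.11 ± 15.8, SD, n = 3). With αPD-L1 it was at 83.6 and 87.5 in 2 wild-type libraries and at 13.02, 18.2 and 20.98 in 3 *Nr2f6*-/- libraries, and at 0 in the other 7. Under IgG2b the 3 wild-type libraries lay above the 3 *Nr2f6*-/- libraries, a difference of -4.36 (SE 2.08, limma adjusted p = 0.920), for which the exact permutation test gave p = 0.1, the smallest that 3 against 3 samples allow. The αPD-L1 effect in wild type was -3.82 (SE 1.80, limma adjusted p = 0.664), with overlapping groups, and 0.48 in *Nr2f6*-/- (SE 1.80, adjusted p = 0.963). On the recovered reads the effect in wild type was smaller, -1.31 in edgeR and -1.33 in DESeq2 (adjusted p = 1 in both), where the means were 71.5 normalized counts with IgG2b and 28.5 with αPD-L1. The difference between genotypes under IgG2b was -2.95 and -2.97 in these tests.

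Of the 9 members, 5 passed the filter of a mean of at least 10 normalized counts, and *Cd79a*, *Ms4a1*, *Pax5* and *Iglc2* did not. For *Nr2f6*-/- against wild type under αPD-L1, 0 members passed an adjusted p of 0.05 in limma beside 0.175% of all genes tested. At an unadjusted p under 0.05, 1 member was higher, *Cd79b*, beside 4.66% of all genes. Under IgG2b 0 members passed, beside 0% of all genes, and 2 were lower at an unadjusted p under 0.05, *Cd79b* and *Jchain*, beside 3.32%. The same 2 members did not overlap between the genotypes under IgG2b, beside 8.07% of genes that did not overlap in this direction.

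For αPD-L1 against IgG2b in wild type, 0 members passed in limma beside 0.242% of all genes, and 3 were lower at an unadjusted p under 0.05, *Ighm*, *Jchain* and *Cd79b*, beside 5.05%. In *Nr2f6*-/- mice 0 members passed beside 0.325%, and *Cd79b* alone was higher at an unadjusted p under 0.05, beside 4.34%, and without overlap, beside 1.97%. For the difference of the αPD-L1 effects 0 members passed beside 0% of all genes, and *Cd79b* alone was higher at an unadjusted p under 0.05, beside 3.09%. In edgeR 0 members passed in any of the 5 comparisons, beside 0.183%, 0%, 0.158%, 0.3% and 0% of all genes in the order given. In DESeq2 *Cd79b* passed in the last 2, beside 1.92% and 0.634% of all genes, and 0 members in the first 3, beside 1.53%, 0.734% and 0.784%. The comparisons share groups and are not independent of each other.

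The summed level of 12 macrophage and monocyte genes differed between the treatments and is given beside the members. It was 16011 to 20770 normalized counts in wild type and 8750 to 14984 in *Nr2f6*-/- with IgG2b, and 2920 to 8009 and 3374 to 5350 with αPD-L1, so neither genotype's treatment groups overlapped. Of the 12 genes, 1 passed in limma in wild type and 2 in *Nr2f6*-/-, all lower, and the median αPD-L1 effects of the list were -3.20 and -3.40 beside -0.10 and -0.04 over all genes tested. *Lyz2*, the lysozyme of myeloid cells, fell with αPD-L1 in wild type (log2 fold change -2.83, limma adjusted p = 0.000387) and in *Nr2f6*-/- (-2.87, adjusted p = 0.000318), and *C1qb*, a complement chain made by macrophages, fell in *Nr2f6*-/- (-3.27, adjusted p = 0.0123). The call of *C1qb* was lost without any 1 of the 3 *Nr2f6*-/- IgG2b libraries (adjusted p = 0.0685, 0.0688 and 0.112), without a filter (0.0591), in the first library set alone (0.0672) and with only the groups compared (0.202). *Ccr2*, a chemokine receptor of monocytes that T cells can also carry, had means of 2877 normalized counts with IgG2b and 2794 with αPD-L1 in *Nr2f6*-/-. None of the 12 was at 0 in all libraries. Under IgG2b the sum was also lower in *Nr2f6*-/- than in wild type without overlap, as *Cd79b* and *Jchain* were, but 0 of the 12 genes passed there in limma, and 0 were lower at an unadjusted p under 0.05. In *Nr2f6*-/- the macrophage sum was lower with αPD-L1, whereas the mean of *Cd79b* was 0.317 with IgG2b and 49.3 with αPD-L1. The part of these cells in the members' values was not tested. In such bulk samples fewer cells of a type and less RNA per cell cannot be told apart.

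Of the other cell types that the sort could hold, the 8 dendritic cell genes summed to 1090 to 1876 normalized counts in the *Nr2f6*-/- IgG2b and 1399 to 1650 in the wild-type IgG2b libraries, and to 349 to 1651 with αPD-L1. The 6 melanocyte genes summed to 736 to 7120 over all libraries and the 4 NK cell genes to 1848 to 4851. The 6 erythrocyte and platelet genes summed to 2300 to 2730 in wild type with IgG2b and to 280 to 1150 in *Nr2f6*-/- with IgG2b, and with αPD-L1 to 84.6 to 11111 in wild type and 17.0 to 2039 in *Nr2f6*-/-. The value of 11111 was that of replicate 5, mostly from hemoglobin genes such as *Hbb-bs* (4139), beside a group median of 256. Most of the sum in wild type with IgG2b came from the platelet gene *Pf4*, at 2142 to 2269. *Ppbp*, a platelet chemokine, had 452, 158 and 77.9 normalized counts in wild type with IgG2b and was at 0 in the other 15 libraries, a difference between treatments in wild type that passed in limma (adjusted p = 0.00136) but not in edgeR (0.0867) or DESeq2 (0.504). No other tested gene of these 4 lists passed in any comparison, and of the 9 T cell genes none did.

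The other B cell genes were taken by list. Of 17 surface and signaling genes 11 were tested and 0 passed in any comparison. *Cd37*, a tetraspanin that T cells also make, was read in all libraries at 908 to 2298 normalized counts, *Ralgps2* at 11.03 to 297, *Cd72*, an inhibitory receptor of B cells, at 0 to 298 and *Ly6d* at 0 to 251. The median αPD-L1 effect of the tested genes was -2.19 in wild type beside -0.10 over all genes tested, and -1.10 in *Nr2f6*-/- beside -0.04. Of 8 transcription factors 7 were tested and 0 passed, with medians of -1.46 and -1.64 for the same comparisons. *Irf8* (3352 to 5977), *Bcl6* (34.9 to 522) and *Spi1* (5.10 to 551), which were read in all libraries, and *Pou2f2* (0 to 348) are also expressed outside B cells.

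Of 10 plasma cell and antibody secretion genes 8 were tested and 0 passed, with medians of 0.14 in wild type and -0.01 in *Nr2f6*-/- for αPD-L1 against IgG2b. *Edem1*, *Prdm1*, *Xbp1* and *Irf4*, which T cells also express, were read in all libraries. *Tnfrsf17*, which encodes the plasma cell receptor BCMA, had 0 reads in all 18. *Sdc1* was read in 13 libraries and *Mzb1* in 11.

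Of 9 further immunoglobulin constant genes, *Iglc3* and *Igha* were tested and neither passed. *Igha*, the constant gene of IgA, had 417, 3.13 and 10.8 normalized counts in wild type and 191, 18.8 and 146 in *Nr2f6*-/- with IgG2b. With αPD-L1 it was read in 2 wild-type libraries, at 126 and 24.9, and in 1 *Nr2f6*-/- library, at 63.2. *Iglc3* had 181, 8.34 and 276 in wild type and 231, 43.3 and 202 in *Nr2f6*-/- with IgG2b, and 1.64 to 80.5 and 0 to 21.7 with αPD-L1. *Iglc3* was lower with αPD-L1 in *Nr2f6*-/- (-4.95, SE 1.55, limma adjusted p = 0.230), and so was *Igha* (-5.36, SE 1.85, limma adjusted p = 0.274). *Iglc1* was read in 5 libraries and *Ighg2c*, an IgG heavy chain gene, in 2, while *Iglc4* was at 0 in all. In wild type the treatment groups overlapped for both tested genes. Wild-type IgG2b replicate 2, the library with the highest macrophage sum (20770), had the lowest *Igha* and *Iglc3* values of the 6 IgG2b libraries. The same library had the highest *Ighm* (4153), *Igkc* (2792) and *Jchain* (130) values of all 18 libraries. How these values go with the macrophage sum was not tested.

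**Figure D4:**
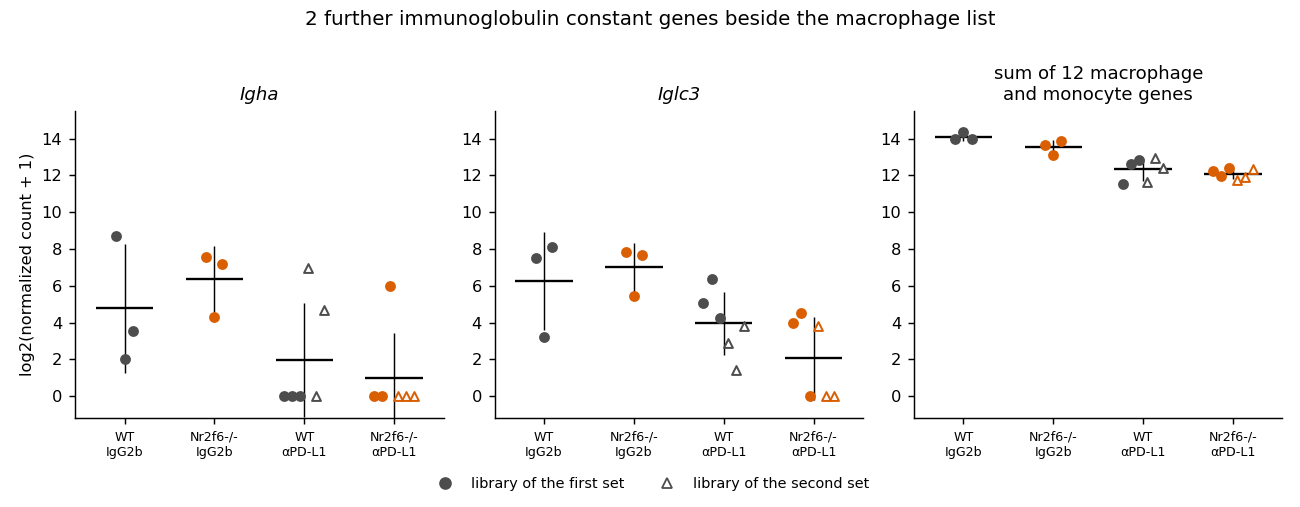
The panels plot *Igha*, *Iglc3* and the sum of the 12 macrophage and monocyte genes as log2(normalized count + 1) by group, with symbols and lines as for the 9 members. *Iglc3* lies at 43.3 to 231 normalized counts in the 3 *Nr2f6*-/- IgG2b libraries and at 0 to 21.7 in the 6 *Nr2f6*-/- αPD-L1 libraries, and the macrophage sums do not overlap between treatments in either genotype.

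All immunoglobulin constant reads together were 56098, or 0.0110% to 0.0458% of a library's reads, and *Ighm* made up 53.5% to 96.9% of them. Of 219 variable segment rows 7 had a read, with 111 reads in all, of which 68 were of *Iglv1* in wild-type IgG2b replicate 2 and 34 of *Igkv2-109* in wild-type IgG2b replicate 3. The 14 joining segment rows had 0 reads, and of 17 diversity segment rows 1 had reads, 12 in 1 library. Per 1000 constant reads there were 1.98 variable segment reads of immunoglobulin genes, 0.872 without wild-type IgG2b replicate 2 and 0.196 without that library and replicate 3, a check chosen after seeing the data. Those libraries were left out because they held most of the variable segment reads, so this fall was fixed in advance. The T cell receptor alpha and beta genes gave 4.05 per 1000, from 5832 reads over 130 rows, in all 18 libraries and with the same 3′ kit. It stands beside the 1.98 of all libraries only, as it was not computed with libraries left out. These counts cover a different number of rows and were not tested.

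Across the 18 libraries the tested members varied largely apart from each other. Over the 10 pairs, Pearson's r of the log2 values went from -0.24 for *Ighd* and *Jchain* to 0.35 for *Igkc* and *Jchain*, and r was -0.15 for *Ighm* and *Igkc*. The libraries share their group and library set in these values. The genes outside the lists whose log2 values followed the mean of the 5 tested members most closely were *Pomt2* (r = 0.82), *Slfn3* (0.80), *Bptf* (0.74), *E130317F20Rik* (0.71) and *Rgs1* (0.69), each over 18 libraries and picked as the highest of all genes.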

How the data were processed

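RNA of TILs was sequenced in 18 samples, grouped by genotype and treatment from the labels. The authors trimmed reads with Cutadapt and Trimmomatic, removed those under 22 nucleotides, aligned the rest with STAR, and what was left with Bowtie2, to mm10, took the primary position of multimapping reads, counted with HTSeq-count and analysed the counts with DESeq2. The annotation, strand setting and versions are not given in the sources used here. The values the authors deposited are of the unit signal, a read count over the size factor of that sample, and replicates were kept apart. All values were whole multiples of 1 step per sample, so that 100% gave whole reads (tolerance 0.001), with size factors of 0.823 to 1.22. For 2 samples whose step lies near 1 this is least certain. No molecular identifiers enter these values, so intervals cover counting error only.

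As the values are normalized, log2(normalized count + 1) was tested with limma 3.58.1 under R 4.3.3, for genes with a mean of at least 10. The 4 group means were fitted over all 18 samples with the trend option, two-sided, with Benjamini-Hochberg adjustment over all 11992 genes and a threshold of 0.05. The pseudocount pulls fold changes of low genes towards 0. Where a group holds both libraries at 0 and high libraries, as for *Jchain*, a difference of mean log2 values can also exceed that of the means. Exact permutation tests compared mean log2 values of single genes. The limma, edgeR 4.0.16 and DESeq2 1.42.0 scripts were checked on simulated data. In them DESeq2 called more unchanged genes than limma or edgeR did. Alternatives were pseudocounts of 0.5 and 10, a minimum mean of 50 or none, quantile normalization, the same total per sample, only the groups compared, the library set as covariate or each set alone, the replicate block, sample weights, both count tests on recovered reads, and leaving out each sample.

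The members and lists were chosen with earlier results of these data known. Named genes were the members, *Nr2f6*, markers of B and plasma cells, list genes past the threshold or among the 4 highest means of a list, and the 5 genes most like the members. Positions are from GENCODE M21 and the ends of the lambda coding regions from RefSeq (GRCm38.p6). The printed sequences are GENCODE M21 transcripts.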

Additional observations from a re-analysis of the deposited data

Results flagged for a closer look

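Among 19 sets of values (the members, the immunoglobulin share of all reads and the kappa share, in each αPD-L1 group of 6 libraries), 4 single libraries stood far from the others of their group. By chance about 1 in 20 sets would have one, but this rate does not apply where the other 5 libraries are at 0, since any read then stands apart. *Ms4a1* had 0.928 normalized counts in wild-type αPD-L1 replicate 4 and 10.9 in *Nr2f6*-/- αPD-L1 replicate 3, and *Pax5* had 1.02 in wild-type αPD-L1 replicate 2, each with the other 5 libraries at 0. The values 0.928 and 1.02 are 1 read each, under the floor of 3 reads. *Iglc2* had 38.1 in *Nr2f6*-/- αPD-L1 replicate 1, beside 0 to 1.998 in the other 5.

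The αPD-L1 effect on *Cd79b* differed between the genotypes by DESeq2 (adjusted p = 0.0109), but not past the threshold in limma (adjusted p = 0.755) or edgeR (adjusted p = 0.888). It had opposite signs in the genotypes, with all 6 *Nr2f6*-/- αPD-L1 libraries above the 3 *Nr2f6*-/- IgG2b libraries.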

How the results depend on the processing

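The count of members past the threshold was 0 in the main test of each of the 5 comparisons and in 117 of 119 alternatives. The exceptions were DESeq2 for αPD-L1 against IgG2b in *Nr2f6*-/- and for the difference of the αPD-L1 effects, with 1 member each, *Cd79b*, and the cause was not tested. Leaving out 1 sample at a time gave 0 members in every comparison. Of 580 member fold changes under these alternatives 34 had the other sign from the main value, of which 12 were of *Ighd* between genotypes under αPD-L1. No *Cd79b* value changed sign. Without *Nr2f6*-/- IgG2b replicate 3, the *Ighd* difference between genotypes under IgG2b was -0.57 beside 1.20 with it. The number of all genes called moved more. DESeq2 called 184, 88, 94, 230 and 76 genes in the 5 comparisons where limma called 21, 0, 29, 39 and 0, and without a filter limma called 9, 14, 37, 17 and 5.

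With the replicate number as a block 0 members passed in any comparison, and 31, 0, 12, 27 and 0 genes did. Samples of the same number did not deviate together (r from -0.029 to 0.037 between pairs), so the numbers were not used as pairs. The values of *Cd79a*, *Ms4a1* and *Pax5* were mostly under the floor of 3 reads, where a difference could not be resolved at this depth. With 3 samples in each IgG2b group, single libraries set the group means of *Cd79b* and *Igkc*.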

Other observations

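*Blnk*, which encodes an adaptor of the B cell receptor and was chosen here after its values were seen, had a mean of 53.8 normalized counts in wild type with IgG2b and 0 in all 3 *Nr2f6*-/- IgG2b libraries. With αPD-L1 it was read in 1 wild-type library, at 4.08, and in 3 *Nr2f6*-/- libraries, at 196, 2.60 and 1.21, so that 1 library set the *Nr2f6*-/- mean of 33.3. The difference of its αPD-L1 effects was 6.99 on the log2 scale (SE 2.13, limma adjusted p = 0.974). Its values over all libraries were 0 in 11 of 18. Of the 11 surface and signaling genes tested, *Blnk* among them, 5 were higher and 6 lower for the difference of the αPD-L1 effects. Their median was -0.097.

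*Mzb1*, which encodes a chaperone of plasma cells, had a mean of 56.5 normalized counts in *Nr2f6*-/- with IgG2b and 2.55 with αPD-L1 (log2 fold change -4.86, limma adjusted p = 0.222). In wild type its means were 35.1 with IgG2b and 11.5 with αPD-L1. Of the 8 plasma cell and antibody secretion genes tested, 4 were higher and 4 lower with αPD-L1 in *Nr2f6*-/-. *Spib*, a transcription factor of B cells and plasmacytoid dendritic cells, was also chosen after its values were seen. Its log2 fold change with αPD-L1 in *Nr2f6*-/- was -5.08 (SE 1.66, limma adjusted p = 0.250). In wild type the *Spib* means were 118 normalized counts with IgG2b and 31.2 with αPD-L1.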
